A study of Danio rerio with 12 samples.

Results

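Genes of the Notch pathway and of the her, hes and hey family were described as a set in zebrafish brains. The fish had watched other fish or been left alone. Some genes of this family are targets of the pathway, and which of the genes here respond to it was not tested. A gene belonged to this set when its symbol on the array named a Notch receptor, a Delta or Jagged ligand, numb, a Fringe enzyme, rbpja, rbpjb or a Mastermind coactivator, or was her, hes or hey followed by a number, or heyl or helt. Of the 18338 genes with a probe set of their own, 42 met this rule: 4 receptors, 9 ligands, 4 modulators, 4 genes of the nuclear complex and 21 her, hes or hey genes. The rule uses symbols only and no measured value, but it was set with earlier results of these data known. mib1 and maml3 were not matched in the array annotation and were not analysed here, and 4 probe sets that list a her gene together with other genes, 1 of them for her4.2 and her4.3, were not used here.

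All fish were adult wild-type males of the AB strain, 11 months old, and each spent a night alone in its test tank before a single exposure of 30 min. The 4 groups held 3 fish each. Fish of the first group watched interacting, that is fighting, males with high attention (BIC). Other fish watched non-interacting males with high attention (BANIC), or were shown non-interacting males and paid little attention (BINIC). Isolated fish saw no other fish (ISOL). The names BIC, BANIC and BINIC stand for bystanders to interacting conspecifics and for attentive and inattentive bystanders to non-interacting ones. Bystanders looked at the stimulus fish through a one-way mirror with no chemical contact. The fish were drawn from a larger behavioral experiment by their attention profile, so a group is a selection of individuals and attention was not assigned to them. Whole-brain RNA of each fish was hybridized to its own Affymetrix zebrafish gene 1.1 ST array, and the values are log2 signals after RMA, 1 per probe set and array. A difference of 1 on this scale is a fold of 2, levels of different genes are not comparable because their probes differ, and with few arrays per group small differences cannot be resolved.

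Notch receptors sit in the cell membrane and are activated by Delta and Jagged proteins on neighboring cells. Cleavage by gamma-secretase then frees the intracellular part of the receptor, which joins the DNA-binding protein Rbpj and a Mastermind coactivator. This complex switches on some of the her and hey genes, whose products are transcriptional repressors. In the adult zebrafish brain this pathway is known for keeping radial glia, the neural stem cells of the ventricular zones, in a resting state, and her4 genes are among its best-known targets there.

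A gene was called differentially expressed at a limma FDR under 0.05 and an absolute log2 difference of at least 1. As in the methods of the study, only genes that varied more across the 12 arrays than the median gene (SD above 0.127) were tested, and 19 of the 42 genes passed this filter (13 of 21 her, hes or hey genes, 3 of 9 ligands, 2 of 4 receptors, 1 of 4 modulators and 0 of 4 genes of the nuclear complex). The filter can pass a gene because its groups differ, so values and counts over all 42 genes are given as well. Just outside it were dlb, her5 and numb, with SDs of 0.124, 0.125 and 0.126, and just inside were heyl, notch1a and her7, with SDs of 0.128, 0.131 and 0.131. The array medians were 5.54 to 5.59, and 12 neuron markers averaged 9.45 to 9.58 in the 12 fish. Among markers of tissues at the edge of a dissected brain, 10 pituitary markers averaged 4.14 to 4.34, and the mean of 20 photoreceptor markers was 3.60 to 3.7 in BIC, 3.63 to 4.16 in BANIC, 3.64 to 4.31 in BINIC and 3.66 to 4.26 in ISOL. Of these 20 markers, 15 were lower in BIC than in ISOL (6 at an unadjusted p under 0.05 from limma), 15 lower in BANIC than in ISOL (3 at such a p) and 16 lower in BANIC than in BINIC (2 at such a p). Of all tested genes, 3.04%, 2.94% and 4.18% were lower at such a p. Means were under 5, where the signal over background is weak, in 18 of the 20 photoreceptor and 7 of the 10 pituitary markers. The photoreceptor mean had r of -0.62 to 0.61 with the 42 genes over the 12 fish, none past the threshold after adjustment. The part of such tissue in the group differences below was not tested. In whole-brain RNA, fewer cells of a type and less RNA per cell cannot be told apart.

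**Figure D1:**
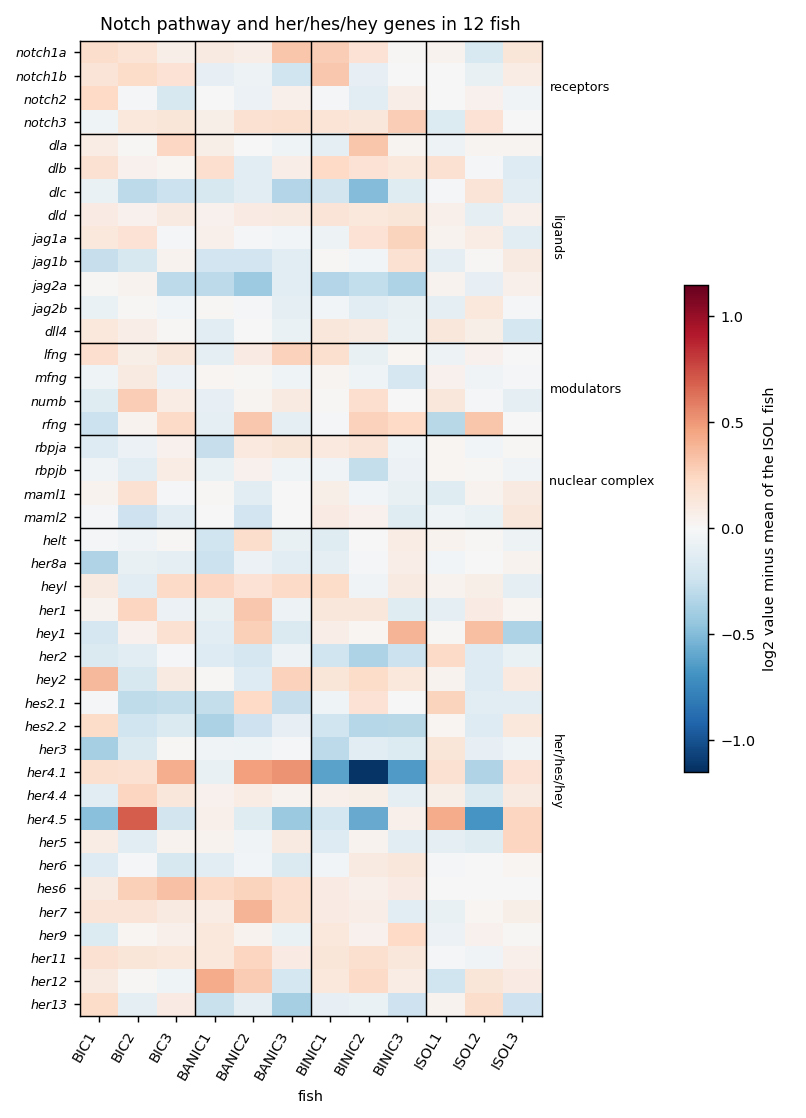
Log2 value of each of the 42 genes (rows, by role) in each of the 12 fish (columns, by group), minus that gene's mean over the 3 ISOL fish; red is above and blue below that mean. her4.1 is the deepest blue in the 3 BINIC fish, her4.5 varies within every group, and most other genes stay close to the ISOL mean.

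The 42 genes as a set differed little between groups, and none of them was called in any of the 5 comparisons. In BIC against ISOL the median log2 difference of the 42 genes was 0.02 (all genes -0.01), in BANIC against ISOL -0.01 (all genes -0.01) and in BINIC against ISOL 0.04 (all genes 0.01). It was 0.01 in BIC against BANIC (all genes 0.00) and -0.01 in BANIC against BINIC (all genes -0.02). The 3 comparisons with ISOL share the same isolated fish, and the other comparisons reuse the bystander groups, so they are not independent of each other. The gene that stood out was her4.1, which was low in the 3 BINIC fish and had the highest SD of the 42 genes, 0.52, above that of 99.1% of all genes.

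her4.1 (Entrez gene 100149863, chromosome 23) encodes a basic helix-loop-helix repressor, a direct Notch target of radial glia and neural progenitors. Its log2 value was 6.57, 6.55 and 6.80 in BIC, 6.30, 6.86 and 6.90 in BANIC, 5.76, 5.26 and 5.74 in BINIC and 6.56, 6.04 and 6.55 in ISOL. All 3 BINIC fish lay below the other 9 fish, with a gap of 0.28 between the highest BINIC fish and the lowest ISOL fish, while BIC, BANIC and ISOL overlapped. The group means were 6.64 ± 0.14 in BIC, 6.68 ± 0.34 in BANIC, 5.59 ± 0.29 in BINIC and 6.38 ± 0.30 in ISOL (SD, n = 3 each). A test of any difference among the 4 groups passed the FDR threshold for her4.1 (F = 14.7, adjusted p = 0.0402 from limma on 12 arrays), as it did for 0.207% of the genes tested. The other 18 genes of the set that were tested did not pass it.

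In pairwise comparisons her4.1 did not reach the FDR threshold. BANIC exceeded BINIC by 1.10 (standard error, SE, 0.19, adjusted p = 0.122 from limma), a fold of 2.14, with no overlap between the groups. BINIC minus ISOL was -0.80 (SE 0.18, limma adjusted p = 0.241), again with no overlap. BIC minus ISOL was 0.26 (SE 0.16, limma adjusted p = 0.882) and BANIC minus ISOL 0.30 (SE 0.19, limma adjusted p = 0.862), and both groups overlapped with ISOL. The BIC difference depended on ISOL2, the lowest isolated fish, and was 0.085 without it (0.085 to 0.344 with 1 array left out). BINIC minus ISOL was -0.97 without ISOL2, below the fold threshold though its limma adjusted p was then 0.0402 (0.0402 to 0.748 with 1 array left out). The call over the 4 groups was lost with no SD filter (adjusted p = 0.170 from limma) and without any 1 of BIC2, BIC3, BANIC2, BANIC3, BINIC1, BINIC2, BINIC3, ISOL1 or ISOL3 (adjusted p 0.0644 to 0.278), and held without BIC1, BANIC1 or ISOL2. In a fit of all 4 groups BANIC minus BINIC was called (adjusted p = 0.0368 from limma), as it was when eBayes was trended and robust (0.0497), within a range of 0.0368 to 0.377 over the alternatives.

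In the RefSeq gene order of chromosome 23, her12, her4.2, her4.1, her4.3, her4.4 and her4.5 follow each other with no gene between them, a row of tandem copies. The other measured genes of this row did not share the low BINIC values. However, her4.4 and her4.5 had mean log2 values of 3.89 and 2.05 over the 12 fish, under 5, where the signal over background is weak. The probe set listed for her4.2 and her4.3 was not used. her12 had 5.03, 4.93 and 4.87 in BIC, 5.35, 5.21 and 4.72 in BANIC, 5.04, 5.14 and 5.004 in BINIC and 4.69, 5.06 and 5.02 in ISOL. her4.4 had 3.72, 4.098 and 3.98 in BIC, 3.91, 3.94 and 3.90 in BANIC, 3.91, 3.93 and 3.74 in BINIC and 3.92, 3.69 and 3.96 in ISOL. In both genes the BINIC fish lay among the others.

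her4.5 had 1.67, 2.84 and 1.94 in BIC, 2.203, 2.01 and 1.72 in BANIC, 1.94, 1.57 and 2.21 in BINIC and 2.58, 1.47 and 2.39 in ISOL. Its SD over the 12 fish, 0.42, was above that of 98.4% of genes, yet high and low fish occurred in each group, and BINIC minus ISOL was -0.24 (SE 0.25, limma adjusted p = 0.771). Whether probes for these tandem copies hybridize to each other's transcripts was not tested.

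**Figure D2:**
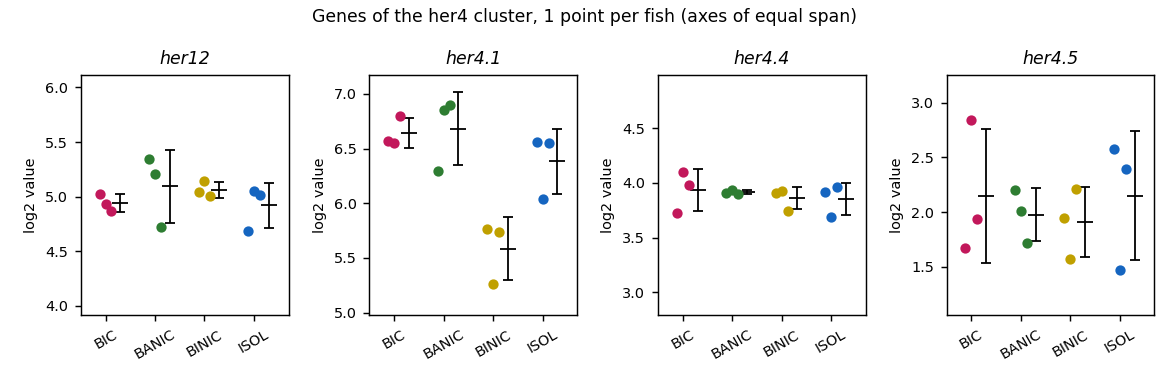
Log2 values of the measured genes of the her4 row on chromosome 23, 1 point per fish, with group mean and SD (n = 3) beside the points and an equal axis span in each panel. In her4.1 the 3 BINIC fish, at 5.26 to 5.76, lie below the other 9, at 6.04 to 6.90, and in her12, her4.4 and her4.5 the groups overlap. The means of her4.4 and her4.5, 3.89 and 2.05, are under 5, where the signal over background is weak.

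Radial glia express her4 genes, and the levels of their markers are given here beside her4.1. The mean of 14 radial glia markers was 8.07 to 8.17 in BIC, 7.997 to 8.102 in BANIC, 8.02 to 8.15 in BINIC and 8.003 to 8.069 in ISOL, and its Pearson r with her4.1 over the 12 fish was 0.10 (Spearman rho 0.10, permutation p = 0.766, adjusted p = 0.911). The BINIC fish lay within the range of the other groups for these markers. Blood markers did move with the BANIC against BINIC contrast: 5 of 5 were higher in BANIC. Of these, 4 were higher at an unadjusted p under 0.05 from limma, as were 3.37% of all tested genes. The blood marker mean was 6.80 to 7.08 in BANIC against 6.30 to 6.62 in BINIC. The same mean was 6.18 to 7.63 in BIC and 5.81 to 7.50 in ISOL. ISOL2 and BIC1 were the lowest fish for blood markers, and the BINIC fish came next. her4.1 and the blood marker mean had r = 0.56 (rho 0.50, permutation p = 0.0551, adjusted p = 0.463), r = 0.52 without BIC3 and ISOL2, the fish farthest from the median of the markers, and r = 0.54 with group means removed. With the same mean her4.4 had r = 0.70 (rho 0.78, permutation p = 0.0124, adjusted p = 0.463) and her4.5 r = 0.515 (rho 0.57, permutation p = 0.0871, adjusted p = 0.561). With group means removed these were 0.67 and 0.53. her12 had r = -0.11 with it. The mean of 6 oligodendrocyte markers was 8.07 to 8.12 in BANIC, 8.17 to 8.22 in BINIC and 8.13 to 8.14 in ISOL, so the BINIC fish were above both, with 8.04 to 8.24 in BIC. Its r with her4.1 was -0.55 (rho -0.52, permutation p = 0.0647, adjusted p = 0.544), -0.72 without BIC1 and BIC3 and 0.01 with group means removed. The mean of 10 markers of dividing cells was 4.291 to 4.342 in BANIC, 4.368 to 4.399 in BINIC and 4.318 to 4.367 in ISOL, with the BINIC fish above BANIC and just above ISOL, and 4.26 to 4.37 in BIC. Its r with her4.1 was -0.45 (rho -0.43, permutation p = 0.144, adjusted p = 0.548), -0.35 without BIC2 and BANIC2 and 0.45 with group means removed. Of the 10 markers of dividing cells, 8 had means under 5, where the signal over background is weak. The part of blood, oligodendrocytes or dividing cells in the her4.1 difference was not tested.

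The receptors are the membrane proteins that receive the signal. Of the 4 receptors, notch1b differed most between the attentive groups. Its log2 value was 6.92, 6.98 and 6.93 in BIC, 6.67, 6.71 and 6.54 in BANIC, 7.08, 6.67 and 6.78 in BINIC and 6.77, 6.68 and 6.85 in ISOL. The 3 BIC fish lay above the 3 BANIC fish and above the 3 ISOL fish, while the BINIC fish ranged across both. BIC minus BANIC was 0.30 (SE 0.11, limma adjusted p = 0.9995), BIC minus ISOL 0.18 (adjusted p = 0.882), BANIC minus ISOL -0.13 (adjusted p = 0.902), BANIC minus BINIC -0.20 (adjusted p = 0.762) and BINIC minus ISOL 0.07 (adjusted p = 0.884). Of the 14 radial glia markers whose means are given beside her4.1, 9 were higher and 5 lower in BIC than in BANIC. The mean of all 14 had r = 0.565 with notch1b (rho 0.41, permutation p = 0.0566, adjusted p = 0.720), 0.37 without BIC2 and BIC3 and 0.29 with group means removed. In this unscaled mean ptgdsb.1 had the widest range, 7.92 to 9.61, with 9.44 in BIC and 8.87 in BANIC. The part of this 1 gene in r was not tested. The part of radial glia in the notch1b values was not tested.

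notch1a, the co-ortholog of notch1b, had 5.13, 5.09 and 4.999 in BIC, 5.04, 5.01 and 5.25 in BANIC, 5.21, 5.10 and 4.94 in BINIC and 4.97, 4.76 and 5.07 in ISOL. Its bystander values overlapped with those of ISOL, and BINIC minus ISOL was 0.16 (SE 0.14, limma adjusted p = 0.739). notch3, a receptor known for holding adult neural stem cells at rest, had 7.73, 7.90 and 7.92 in BIC, 7.85, 7.96 and 7.97 in BANIC, 7.94, 7.91 and 8.06 in BINIC and 7.63, 7.94 and 7.78 in ISOL. The groups overlapped, with ISOL1 the lowest and BINIC3 the highest fish. notch3 did not pass the SD filter, and among all 18338 genes BINIC minus ISOL was 0.19 (SE 0.10, limma adjusted p = 0.585). notch2 lay between 5.33 and 5.74 in the 12 fish, with group means of 5.52 in BIC, 5.51 in BANIC, 5.50 in BINIC and 5.51 in ISOL.

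The ligands sit on the sending cell. jag2a, a Jagged ligand, was lower in BINIC at an unadjusted p only. It had 5.34, 5.37 and 5.03 in BIC, 5.03, 4.92 and 5.21 in BANIC, 4.99, 5.05 and 4.97 in BINIC and 5.37, 5.23 and 5.39 in ISOL. The 3 BINIC fish and the 3 BANIC fish lay below the 3 ISOL fish, while BIC held both high and low fish. BINIC minus ISOL was -0.33 (SE 0.12, limma adjusted p = 0.531), BANIC minus ISOL -0.28 (adjusted p = 0.835) and BIC minus ISOL -0.08 (adjusted p = 0.947). BIC minus BANIC was 0.19 (adjusted p = 0.9995 from limma). Of 12 blood vessel markers, 11 were lower in BIC, 11 in BANIC and 9 in BINIC than in ISOL, where 46.8%, 47.0% and 52.3% of all genes were higher. Their mean had r = 0.65 with jag2a (rho 0.52, permutation p = 0.0219, adjusted p = 0.281), 0.40 without ISOL1 and ISOL3 and 0.51 with group means removed. The part of vessels in the jag2a values was not tested.

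jag1b, another Jagged ligand, had 5.17, 5.26 and 5.48 in BIC, 5.22, 5.23 and 5.32 in BANIC, 5.45, 5.41 and 5.62 in BINIC and 5.33, 5.45 and 5.546 in ISOL. All 3 BANIC fish lay below all BINIC and all ISOL fish, with BANIC minus BINIC at -0.24 (SE 0.11, limma adjusted p = 0.683). dlc, a Delta ligand best known from the segmentation clock of the embryo, had 5.41, 5.18 and 5.23 in BIC, 5.30, 5.36 and 5.15 in BANIC, 5.27, 4.99 and 5.34 in BINIC and 5.46, 5.63 and 5.35 in ISOL. The 3 BINIC fish were below the 3 ISOL fish, and the log2 difference from ISOL was -0.21 in BIC, -0.21 in BANIC and -0.28 in BINIC, none of which passed (adjusted p = 0.882, 0.854 and 0.594 from limma).

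dld, a Delta ligand of neural progenitors, varied least of the ligands together with jag2b, with an SD of 0.07 over the 12 fish. Its values were 7.35, 7.30 and 7.35 in BIC, 7.30, 7.35 and 7.36 in BANIC, 7.40, 7.37 and 7.39 in BINIC and 7.31, 7.14 and 7.31 in ISOL. The 3 BINIC fish were above the other 9, as they were in 2.34% of all genes. dla, a Delta ligand of newborn neurons, had 4.57, 4.504 and 4.72 in BIC, 4.55, 4.49 and 4.44 in BANIC, 4.39, 4.80 and 4.52 in BINIC and 4.43, 4.52 and 4.52 in ISOL, with overlap between all groups. dlb and the vessel ligand dll4, jag1a and jag2b had ranges over the 12 fish of 5.07 to 5.46, 5.75 to 6.08, 5.43 to 5.81 and 6.81 to 7.07, and dll4 was higher in all 3 BIC fish (6.07, 6.03 and 5.96) than in all 3 BANIC fish (5.83, 5.94 and 5.87), with 6.08, 6.05 and 5.87 in BINIC and 6.08, 6.02 and 5.75 in ISOL.

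The modulators change how a receptor responds: the Fringe enzymes lfng, mfng and rfng add sugars to Notch, and numb holds the receptor back in a daughter of a dividing cell. rfng was the only 1 of the 4 past the SD filter. It had 6.27, 6.56 and 6.73 in BIC, 6.41, 6.83 and 6.41 in BANIC, 6.49, 6.78 and 6.75 in BINIC and 6.199, 6.83 and 6.52 in ISOL, with low and high fish in the ISOL group itself and an adjusted p of 0.777 or above from limma in the 5 comparisons. numb had 8.16, 8.59 and 8.38 in BIC, 8.21, 8.33 and 8.40 in BANIC, 8.32, 8.496 and 8.30 in BINIC and 8.43, 8.28 and 8.19 in ISOL. mfng had 5.78, 5.94 and 5.77 in BIC, 5.86, 5.85 and 5.78 in BANIC, 5.87, 5.78 and 5.64 in BINIC and 5.88, 5.79 and 5.82 in ISOL. In both genes all groups overlapped. lfng lay between 5.69 and 6.05, with the 3 BIC fish (5.98, 5.86 and 5.93) above the 3 ISOL fish (5.73, 5.84 and 5.80), a log2 difference of 0.13 (SE 0.07, limma adjusted p = 0.897 with no SD filter).

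In the nuclear complex, Rbpj proteins bind DNA and Mastermind proteins recruit the transcription machinery, and these 4 genes varied little, with SDs of 0.09 to 0.12. rbpja had 5.27, 5.36 and 5.47 in BIC, 5.15, 5.53 and 5.56 in BANIC, 5.53, 5.56 and 5.38 in BINIC and 5.44, 5.39 and 5.43 in ISOL. rbpjb had 6.73, 6.64 and 6.85 in BIC, 6.69, 6.81 and 6.72 in BANIC, 6.72, 6.49 and 6.70 in BINIC and 6.78, 6.78 and 6.73 in ISOL. rbpja overlapped in every comparison, and in rbpjb the 3 BINIC fish lay just below the 3 ISOL fish (-0.13, standard error 0.09, adjusted p = 0.665 from limma with no SD filter). maml1 ranged from 6.22 to 6.54 and maml2 from 5.80 to 6.16, with overlap between all groups.

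**Figure D3:**
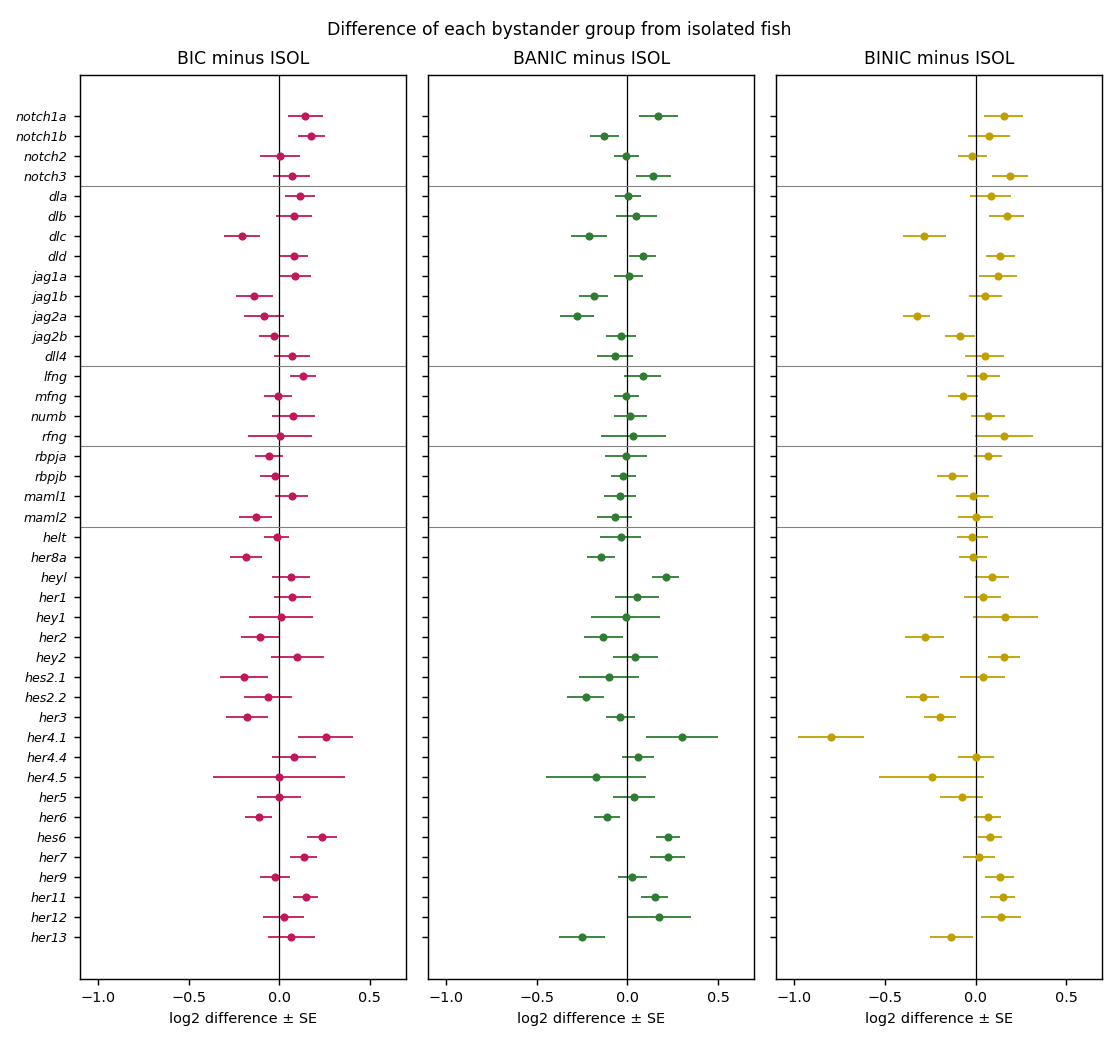
Log2 difference of each bystander group from ISOL for the 42 genes, with its standard error from limma with no SD filter, ordered by role; the 3 panels share the same 3 ISOL fish. her4.1 in BINIC, at -0.80, lies farthest from 0, and the remaining differences lie between -0.33 and 0.30.

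Of the her, hes and hey genes beside her4.1, hes6 had higher values in every attentive fish than in the isolated ones, short of the FDR threshold. hes6 encodes a partner of the Her repressors of the segmentation clock in the zebrafish embryo, and in mouse Hes6 promotes neuronal differentiation. It had 4.27, 4.44 and 4.504 in BIC, 4.39, 4.43 and 4.37 in BANIC, 4.26, 4.22 and 4.27 in BINIC and 4.17, 4.16 and 4.17 in ISOL. The 3 ISOL fish lay below the other 9, as they did in 0.594% of all genes, and the 3 BANIC fish lay above the 3 BINIC fish. The mean of hes6 over the 12 fish was 4.30, under 5, where the signal over background is weak. Means were under 5 in 14 of the 21 her, hes or hey genes, among them hes2.1, hes2.2, her2, her3, her7, her13 and heyl below. hes6 did not pass the SD filter, and with all genes tested BIC minus ISOL was 0.24 (SE 0.08, limma adjusted p = 0.873), BANIC minus ISOL 0.22 (SE 0.06, adjusted p = 0.743) and BINIC minus ISOL 0.08 (adjusted p = 0.726). Beside it, 12 blood vessel markers averaged 5.852 to 5.997 in BIC, 5.78 to 5.90 in BANIC, 5.89 to 5.97 in BINIC and 5.94 to 6.10 in ISOL, and their mean had r = -0.74 with hes6 (rho -0.75, permutation p = 0.00489, adjusted p = 0.103), r = -0.64 without ISOL1 and ISOL3 and r = -0.59 with group means removed. With the oligodendrocyte markers hes6 had r = -0.607 (rho -0.615, permutation p = 0.0379, adjusted p = 0.530), -0.53 without BIC1 and BIC3 and -0.89 with group means removed, and with the blood markers r = 0.57 (rho 0.57, permutation p = 0.0537, adjusted p = 0.463), 0.21 without BIC3 and ISOL2 and 0.68 with group means removed. The part of vessels, oligodendrocytes or blood in the hes6 values was not tested.

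hes2.2, a Hes-family repressor, had 5.02, 4.58 and 4.64 in BIC, 4.45, 4.57 and 4.71 in BANIC, 4.57, 4.48 and 4.49 in BINIC and 4.83, 4.66 and 4.93 in ISOL. The 3 BINIC fish lay below the 3 ISOL fish, with a log2 difference of -0.29 (SE 0.13, limma adjusted p = 0.566). BANIC minus ISOL was -0.23 (adjusted p = 0.85 from limma) and BIC minus BANIC 0.17 (adjusted p = 0.9995). hes2.2 had r = 0.63 with the blood vessel marker mean (rho 0.40, permutation p = 0.0267, adjusted p = 0.281), 0.42 without ISOL1 and ISOL3 and 0.57 with group means removed, and the part of vessels was not tested here either. The neighbor of hes2.2 on chromosome 8, hes2.1, had 2.63, 2.35 and 2.37 in BIC, 2.37, 2.88 and 2.37 in BANIC, 2.60, 2.81 and 2.64 in BINIC and 2.90, 2.51 and 2.51 in ISOL, with overlap in every comparison and BIC minus ISOL at -0.19 (adjusted p = 0.887 from limma).

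her2, a Her repressor and the second gene in which the 3 BINIC fish were below the other 9, had 4.72, 4.75 and 4.87 in BIC, 4.73, 4.69 and 4.83 in BANIC, 4.65, 4.53 and 4.63 in BINIC and 5.11, 4.74 and 4.80 in ISOL. BINIC minus ISOL was -0.28 (SE 0.14, limma adjusted p = 0.582), and ISOL1 lay well above the other isolated fish. The position of the 3 BINIC fish below all others occurred in 1.37% of all genes and in 2 of the 42. her3, which represses proneural genes in the embryo, had 4.16, 4.38 and 4.56 in BIC, 4.498, 4.49 and 4.52 in BANIC, 4.24, 4.41 and 4.39 in BINIC and 4.68, 4.45 and 4.49 in ISOL. Its BINIC fish were below all BANIC and all ISOL fish, with BINIC minus ISOL at -0.20 (adjusted p = 0.657 from limma), BANIC minus BINIC at 0.16 (adjusted p = 0.771) and BIC minus ISOL at -0.18 (adjusted p = 0.887).

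her13, another Her-family gene, had 4.38, 4.06 and 4.27 in BIC, 3.91, 4.06 and 3.78 in BANIC, 4.08, 4.09 and 3.93 in BINIC and 4.20, 4.37 and 3.93 in ISOL. BIC fish were at or above the BANIC fish, with BIC1 and BIC3 highest, and BIC minus BANIC was 0.32 (SE 0.13, limma adjusted p = 0.9995), while BANIC minus ISOL was -0.25 (adjusted p = 0.85). her7, a segmentation clock repressor that lies beside her1 on chromosome 5, had 3.71, 3.71 and 3.66 in BIC, 3.65, 3.95 and 3.75 in BANIC, 3.65, 3.64 and 3.44 in BINIC and 3.47, 3.58 and 3.63 in ISOL. The BIC and BANIC fish lay above the ISOL fish by 0.13 and 0.22 (adjusted p = 0.893 and 0.85 from limma), and BANIC minus BINIC was 0.20 (adjusted p = 0.738). heyl, a Hey-family repressor, had 4.35, 4.12 and 4.46 in BIC, 4.48, 4.41 and 4.47 in BANIC, 4.45, 4.21 and 4.34 in BINIC and 4.29, 4.31 and 4.13 in ISOL. Its BANIC fish were above all ISOL fish, with a log2 difference of 0.21 (SE 0.12, limma adjusted p = 0.85), and BIC minus BANIC was -0.14 (adjusted p = 0.9995).

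her6, the ortholog of mammalian Hes1, encodes a repressor that acts in neural progenitors. Its values were 7.71, 7.83 and 7.67 in BIC and 7.71, 7.81 and 7.68 in BANIC. The BINIC fish had 7.82, 7.96 and 7.98 and the ISOL fish 7.82, 7.85 and 7.87. Both attentive groups were mostly below BINIC, and BANIC minus BINIC was -0.18 with no overlap (SE 0.07, limma adjusted p = 0.573 with no SD filter). her11, which lies beside her5 on chromosome 14, had 2.09, 2.05 and 2.03 in BIC, 2.03, 2.16 and 2.003 in BANIC, 2.05, 2.09 and 2.04 in BINIC and 1.90, 1.87 and 1.97 in ISOL. The 3 ISOL fish lay below the other 9, and the differences from ISOL were 0.15 in BIC, 0.15 in BANIC and 0.15 in BINIC (adjusted p = 0.893, 0.855 and 0.552 from limma with no SD filter). These 3 differences use the same ISOL fish. The mean of her11 over the 12 fish was 2.02, under 5, where the signal over background is weak. The remaining genes of the family were helt, her1, her5, her8a, her9, hey1 and hey2. Their ranges over the 12 fish spanned 0.38 to 0.75 on the log2 scale, with hey1, a Hey-family repressor, the widest. her8a was lower in all BIC (5.13, 5.38 and 5.36) and all BANIC fish (5.23, 5.41 and 5.35) than in all 3 ISOL fish (5.44, 5.47 and 5.51), which overlapped with BINIC (5.37, 5.46 and 5.552). In hey2, a repressor known from the formation of arteries and heart, and in her9, all 3 BINIC fish were above all 3 ISOL fish, by 0.16 and 0.13.

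**Figure D4:**
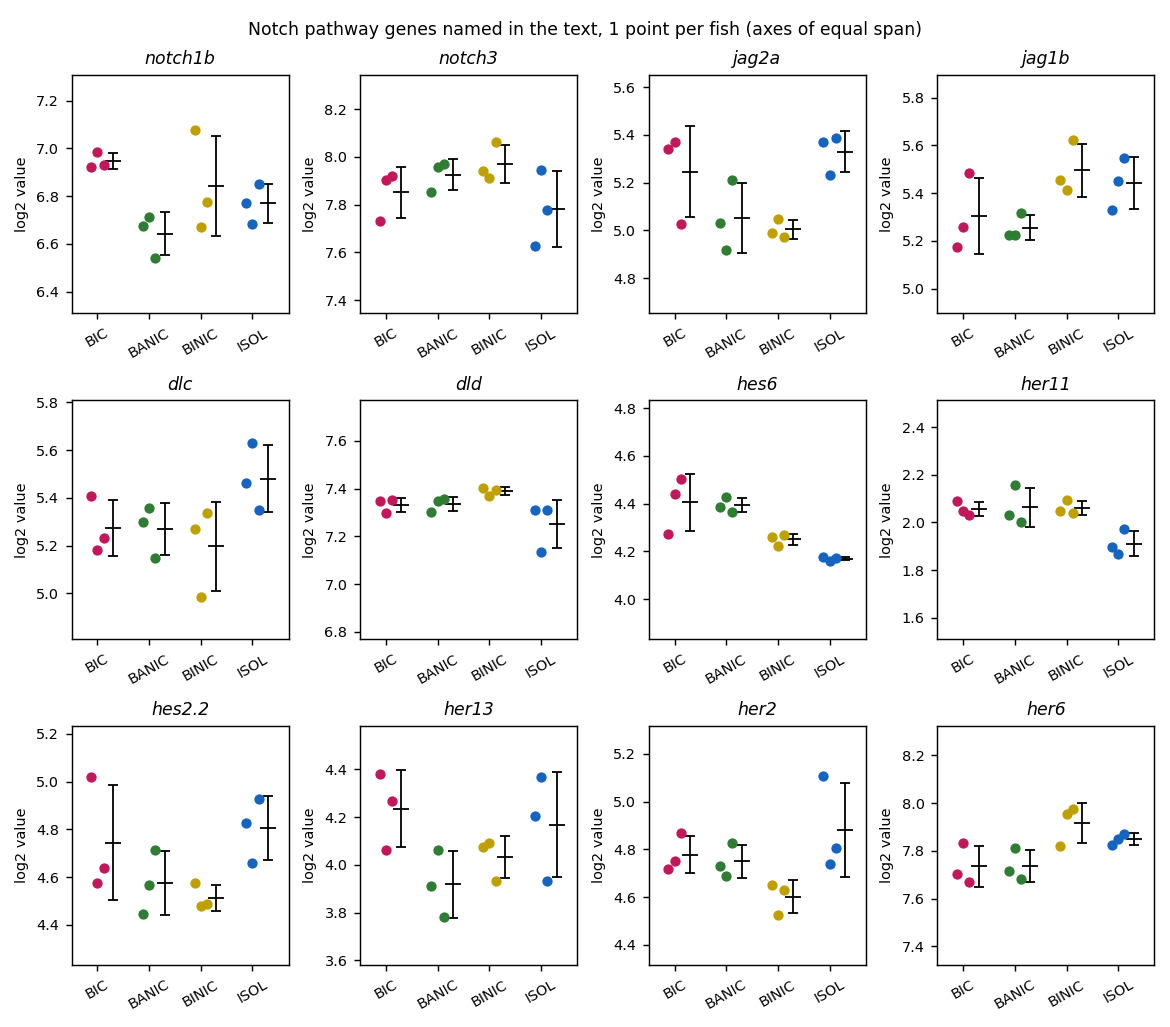
Log2 values of 12 further genes named in the text, 1 point per fish, with group mean and SD (n = 3) beside the points and an axis span of 1 in every panel. The 3 BIC fish of notch1b lie above the BANIC fish, the 3 ISOL fish of hes6 and her11 lie below the other 9, and the 3 BINIC fish of jag2a and hes2.2 lie below the ISOL fish. Of the genes shown, hes6, hes2.2, her13, her2 and her11 have means under 5, where the signal over background is weak. The lowest is her11, with a mean of 2.02.

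Watching a fight compared with isolation (BIC against ISOL) moved none of the 42 genes past a threshold. Under limma 0 of 19 tested genes were called, where 0.0763% of all tested genes were, and at an unadjusted p under 0.05 0 were higher (2.63% of all) and 0 lower (3.04% of all). With no SD filter hes6 and notch1b, 2 of 42, were higher at such a p (2.5% of all genes) and 0 lower (3.13%). Groups did not overlap in 6 genes: hes6, notch1b, her11, her7 and lfng were higher in BIC (5 of 42, all genes 4.68%) and her8a lower (1 of 42, all genes 6.01%). Of these, hes6, her11 and her7 had means under 5, where the signal over background is weak. The differences of the 42 genes from ISOL lay between -0.21 and 0.26.

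Attention to non-interacting conspecifics compared with isolation (BANIC against ISOL) gave 0 calls among the 19 tested genes (0.109% of all tested genes) and, at an unadjusted p under 0.05 from limma, 0 higher (3.01% of all) and 0 lower (2.94% of all). With no SD filter hes6 and heyl, 2 of 42, were higher at such a p (2.61% of all genes) and jag2a, 1 of 42, lower (3.29%). Groups did not overlap in 8 genes, of which hes6, heyl, her7 and her11 were higher in BANIC (4 of 42, all genes 4.88%) and jag2a, jag1b, her8a and her6 lower (4 of 42, all genes 6.24%). The 4 higher genes all had means under 5, where the signal over background is weak. The count at an unadjusted p under 0.05 was 1 without BANIC1 or ISOL3 and 2 without BANIC3 or ISOL2.

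Inattentive fish compared with isolated fish (BINIC against ISOL) gave 0 calls (0.0218% of all tested genes). At an unadjusted p under 0.05 from limma 3 of the 19 tested genes were lower in BINIC, her4.1, jag2a and hes2.2, and 0 were higher, where 3.6% of all tested genes were lower and 5.16% higher. With no SD filter 5 of 42 were lower, her2 and dlc in addition, and 0 higher, where 4.07% of all genes were lower and 5.24% higher. Groups did not overlap in 12 genes: her11, dld, hey2, her9 and hes6 were higher in BINIC (5 of 42, all genes 8.56%) and her4.1, jag2a, hes2.2, her2, dlc, her3 and rbpjb lower (7 of 42, all genes 7.25%). Of these, her11, hes6, hes2.2, her2 and her3 had means under 5, where the signal over background is weak. The count of 3 was 1 without BINIC3, ISOL1 or ISOL3 and 5 without ISOL2.

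The attentive groups differed in the stimulus they watched (BIC against BANIC), and 0 of 19 genes were called (0.0218% of all tested genes). notch1b and her13 were higher in BIC at an unadjusted p under 0.05 from limma and 0 genes were lower, where 1.58% of all tested genes were higher and 2% lower. With no SD filter the same 2 genes were higher and 0 lower, where 1.96% of all genes were higher and 2.26% lower. notch1b, her13 and dll4 did not overlap, all higher in BIC (3 of 42, all genes 4.59%), and 0 were wholly lower (all genes 4.56%). In her13 the groups all but touched, with BIC2 at 4.061 and BANIC2 at 4.0609. Its mean of 4.09 is under 5, where the signal over background is weak. The count of 2 was 1 without BIC1, BIC2, BIC3, BANIC1 or BANIC3.

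At an unadjusted p under 0.05 from limma, 1 of 19 tested genes, her4.1, differed between attentive and inattentive fish (BANIC against BINIC). Both groups were shown the same kind of stimulus. Of all tested genes, 3.37% were higher and 4.18% lower in BANIC at such a p. There were 0 calls (0.0109% of all tested genes). With no SD filter her4.1 and hes6 were higher and jag1b and her6 lower in BANIC, 2 of 42 each way, where 3.45% of all genes were higher and 5.09% lower. Groups did not overlap in 7 genes: her4.1, hes6, her3 and her2 were higher in BANIC (4 of 42, all genes 5.99%) and jag1b, her6 and dld lower (3 of 42, all genes 9.28%). The count was 2 without BANIC2. In the test over the 4 groups 1 of 19 genes had an unadjusted p under 0.05 (7.13% of all tested genes), and with no SD filter 3 of 42 did, her4.1, hes6 and jag2a (8.32% of all genes).

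Other genes of the pathway were described from 4 lists of 65 genes, of which 54 were measured: 18 for the handling of ligands and receptors, 4 for gamma-secretase, 17 nuclear cofactors and 15 proneural genes, transcription factors of neuronal differentiation that include targets of Her repression. Of these, 16 passed the SD filter and 0 were called in any of the 5 comparisons by limma. At an unadjusted p under 0.05, 0 were higher and 1 lower in BIC against ISOL (2.63% and 3.04% of all tested genes), 0 and 0 in BANIC against ISOL (3.01% and 2.94%), 0 and 1 in BINIC against ISOL (5.16% and 3.6%), 0 and 0 in BIC against BANIC (1.58% and 2%), and 1 and 1 in BANIC against BINIC (3.37% and 4.18%). Of all 54 genes, tested with no SD filter, 2 were higher and 2 lower in BIC against ISOL (2.5% and 3.13% of all genes), 0 and 0 in BANIC against ISOL (2.61% and 3.29%), 0 and 1 in BINIC against ISOL (5.24% and 4.07%), 0 and 1 in BIC against BANIC (1.96% and 2.26%), and 2 and 2 in BANIC against BINIC (3.45% and 5.09%). Among those past the SD filter, the gene lower in BIC and in BINIC, and higher in BANIC than in BINIC, was insm1a, a zinc finger factor of differentiating neurons. It had 5.58, 5.56 and 5.69 in BIC, 6.05, 5.70 and 5.56 in BANIC, 5.497, 5.38 and 5.38 in BINIC and 5.76, 6.10 and 6.09 in ISOL. The BIC and the BINIC fish lay below all ISOL fish, with BINIC minus ISOL at -0.56 (SE 0.14, limma adjusted p = 0.260), BIC minus ISOL at -0.37 (adjusted p = 0.869) and BANIC minus BINIC at 0.35 (adjusted p = 0.631).

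tle2c, a Groucho corepressor that Her proteins recruit, was lower in BANIC than in BINIC at an unadjusted p only. It had 7.24, 7.17 and 7.05 in BANIC and 7.41, 7.42 and 7.42 in BINIC, with 7.18, 7.34 and 7.23 in BIC and 7.35, 6.83 and 7.21 in ISOL, and BANIC minus BINIC was -0.26 (SE 0.11, limma adjusted p = 0.651). The BANIC fish lay below the closely grouped BINIC fish. The median differences of the proneural list were -0.02 in BIC, 0.04 in BANIC and 0.02 in BINIC against ISOL, beside -0.01, -0.01 and 0.01 for all genes.

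The level of each of the 42 genes was also set against the mean of 9 lists of cell type markers over the 12 fish, 378 relations in all, and 0 had an adjusted p under 0.05 (100000 permutations, adjusted within each list). Relations printed beside single genes above are a selection of the 378. Per list of 42, from 0 (radial glia) to 5 (blood vessels) had a Pearson permutation p under 0.05 before adjustment. By Pearson permutation p the smallest were those of notch3, while by Spearman they were those of hey2 and dld with 10 markers of dividing cells (rho 0.80 and 0.78, permutation p = 0.00302 and 0.00426, adjusted p = 0.0895 each; r = 0.75 and 0.48, permutation p = 0.00544 and 0.109, 0.53 and 0.65 without BIC2 and BANIC2, and 0.87 and 0.55 with group means removed). Of these 10 markers of dividing cells, 8 had means under 5, where the signal over background is weak. her4.4 with the blood markers had the same rho as dld, 0.776 (permutation p = 0.00447, adjusted p = 0.188), so these relations rank alike. notch3 was lower in fish with higher microglia and leukocyte markers (r = -0.81, rho -0.73, permutation p = 0.00143, adjusted p = 0.0601). Without ISOL1 and BIC1, the fish farthest from the median of the markers, r was -0.48, so the relation rests in part on these fish, and with group means removed it was -0.92. With the 12 blood vessel markers r was -0.79 (rho -0.66, permutation p = 0.00214, adjusted p = 0.0899), -0.51 without ISOL1 and ISOL3 and -0.84 with group means removed. Most markers of both lists had lower group means in bystanders than in the shared ISOL fish. For vessels 11 of 12 were lower in BIC, 11 in BANIC and 9 in BINIC. For microglia and leukocytes these were 11, 14 and 10 of 14. Of all genes, 46.8%, 47.0% and 52.3% were higher in these comparisons. At an unadjusted p under 0.05 from limma, 3, 3 and 0 of 9 tested vessel markers were lower (3.04%, 2.94% and 3.6% of all tested genes). In each comparison 0 of 12 tested microglia and leukocyte markers were. With no SD filter 3, 4 and 3 of 12 vessel markers were lower at such a p (3.13%, 3.29% and 4.07% of all genes). For microglia and leukocytes these were 0, 1 and 0 of 14. ISOL1 had the highest microglia and leukocyte mean, 5.77. BIC1, BINIC1 and BINIC2 (5.68, 5.64 and 5.596) exceeded ISOL2 and ISOL3 (5.50 and 5.592). The part of these cells in the notch3 values was not tested.

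**Figure D5:**
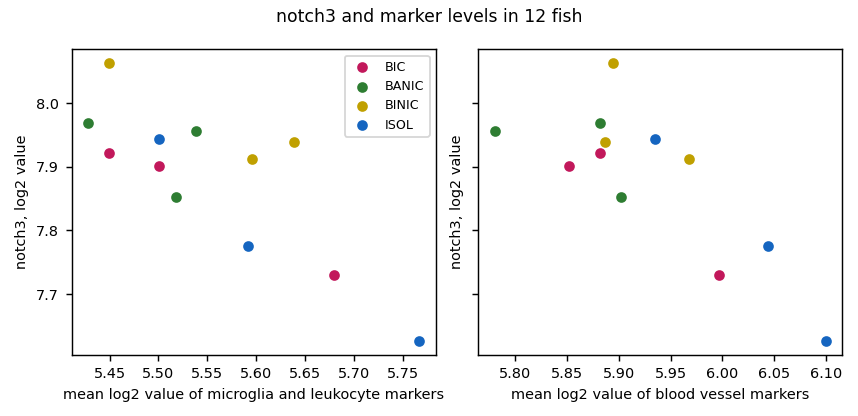
Log2 value of notch3 in each of the 12 fish against the mean log2 value of 14 microglia and leukocyte markers (left) and of 12 blood vessel markers (right), colored by group. ISOL1, at 7.63, is lowest in notch3 and highest in both marker lists. BINIC1 and BINIC2, at 7.94 and 7.91 in notch3, have microglia and leukocyte means of 5.64 and 5.596, exceeded by those of ISOL1 and BIC1.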

How the data were processed

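The deposited values are log2 signals, which the authors made from 12 arrays with oligo and RMA (background correction, quantile normalization and summary per probe set), and the submitters' processing notes name limma as well. Versions and a genome build are not given in the sources used here. Of 23467 probe sets, 19283 list 1 gene with an Entrez ID, and each of the 18338 genes was represented by its probe set of highest mean. RefSeq (GRCz12tu) held 18243 of them and all 42 genes of the set under the same symbol. It served for chromosomes and gene order, and coordinates are not given because the array was designed on another assembly.

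Pairs of groups were fitted with limma 3.58.1 in R 4.3.3 on the 6 arrays concerned, after the SD filter (9169 genes), with Benjamini-Hochberg adjustment, and an F test covered all 12 arrays. The labels name separate fish as replicates. The fits were tested on simulated data. Genes are named with all values when they had 1 of the 5 smallest p in a comparison or the highest or lowest mean or highest SD in their role. hes6, dll4, lfng, her8a, hey2, her9 and the other genes of the her4 row were named after their values were seen. The genes, lists and tests were chosen with earlier results of these data known. Alternatives were 1 fit of all groups, no SD filter, removal of genes with a mean under 5, the mean of all probe sets, a trended and robust eBayes, array weights, median centring, the replicate number as a block, and leaving out each array. All columns of values were used. The same-numbered fish share only a number in the labels.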

Additional observations from a re-analysis of the deposited data

Results flagged for a closer look

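her4.1 lay on opposite sides of the ISOL mean in 2 bystander groups. Every BIC fish (6.57, 6.55 and 6.80) lay above the mean of the ISOL fish and every BINIC fish (5.76, 5.26 and 5.74) below it, and BIC minus BINIC was 1.06 on the log2 scale. This difference was not tested on its own. In a check added after the values were seen, the ISOL mean was 6.38 with all 3 fish and 6.56 without ISOL2. Then 2 of 3 BIC fish were above it, so the place of every BIC fish above the ISOL mean rests on ISOL2. BIC minus ISOL was then 0.085 and BINIC minus ISOL -0.97. Such opposite moves of BIC and BINIC were seen in 2.99% of all genes and in 1 of the 42.

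notch1b and dll4 lay on opposite sides of the ISOL mean in the 2 attentive groups. Every BIC fish of notch1b (6.92, 6.98 and 6.93) was above the ISOL mean and every BANIC fish (6.67, 6.71 and 6.54) below it, a difference of 0.30 (adjusted p = 0.9995 from limma). In dll4 every BIC fish (6.07, 6.03 and 5.96) was above and every BANIC fish (5.83, 5.94 and 5.87) below the ISOL mean, a difference of 0.14 (adjusted p = 0.9997 from limma with no SD filter). In the same check this order held for notch1b without any 1 of the ISOL fish and for dll4 under none of these removals. In dll4 1 of 3 BIC fish was above the ISOL mean without ISOL3, and 2 of 3 BANIC fish were below it without ISOL1 or without ISOL2. Opposite moves of BIC and BANIC were seen in 1.59% of all genes and in 2 of the 42.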

How the results depend on the processing

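The number of arrays limits these results, and 15 of the 42 genes had a mean log2 value under 5, where the signal over background is weak. Of 354 values of single genes under the alternatives, 342 kept their direction and their side of the threshold. As 0 genes were called in the 5 comparisons, staying on the uncalled side says little about stability. Of 65 medians over the 42 genes, 57 moved by less than the SD between fish. Counts at an unadjusted p under 0.05 moved as follows. With no SD filter they were 2 in BIC against ISOL (0 as reported), 3 in BANIC against ISOL (0), 5 in BINIC against ISOL (3) and 4 in BANIC against BINIC (1). With all 4 groups in the fit they were 1 in BANIC against ISOL and 5 in BINIC against ISOL. With dim genes left out they were 1 in BANIC against ISOL, 1 in BIC against BANIC (2) and 2 in BANIC against BINIC, and with array weights 1 in BANIC against ISOL. Leaving out 1 array gave 0 to 2 in BANIC against ISOL, 1 to 5 in BINIC against ISOL, 1 to 2 in BIC against BANIC and 1 to 2 in BANIC against BINIC. Calls in BANIC against BINIC were 1, her4.1, with all 4 groups in the fit and 1 with a trended and robust eBayes (0 as reported). Shares of all genes are given for the reported fits and for no SD filter only. Counts under the other alternatives, here and above, therefore cannot be set against all genes. The count of genes that differed over the 4 groups was 0 with no SD filter and 0 to 1 with 1 array left out (1 as reported). Where more genes or fewer fish entered a fit, that is the alternative's own construction, and otherwise the cause was not tested.

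The numbers of the fish are not known to pair them. Of 18 same-numbered pairs between groups, 1 correlated above 0.1 in its deviations from the group means (r from -0.151 to 0.192, against -0.203 to 0.157 for other numbers). With the replicate block the count at an unadjusted p under 0.05 in BIC against BANIC was 1 in place of 2, and the block moved no other count by over 1.5 times.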

Other observations

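notch1a was the 1 gene of the 42 with a second probe set, which was chosen for mention after its values were seen. On that probe set the 3 BINIC fish (3.996, 3.96 and 4.05) lay above the 3 BIC fish (3.77, 3.58 and 3.73) and the 3 BANIC fish (3.73, 3.51 and 3.73), and the ISOL fish had 3.99, 3.62 and 3.91. The probe set of highest mean did not show this order, with 5.21, 5.10 and 4.94 in BINIC, 5.13, 5.09 and 4.999 in BIC, 5.04, 5.01 and 5.25 in BANIC and 4.97, 4.76 and 5.07 in ISOL. Both probe sets are annotated to the same Entrez gene, and no test was run on the one of lower mean alone.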
